A study of Mus musculus with 6 samples.

Results

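Cytochrome c oxidase, complex IV of the respiratory chain, carries several small nuclear-encoded subunits that exist as a heart and skeletal muscle isoform and as an isoform found in most tissues. The 6 genes described here form the 3 such pairs that change partners in muscle, Cox6a2 with Cox6a1, Cox7a1 with Cox7a2 and Cox8b with Cox8a, the heart isoform named first. The rule names them as known isoform pairs and uses no measured value, but it was set with earlier results of these data known. All 6 were among the 14041 genes tested in the bulk RNA-Seq data, and all 6 were present in the single-cell tables.

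The study asked how the age of neighbouring fibroblasts affects the maturation of immature cardiomyocytes (imCMs). imCMs of neonatal C57BL/6 mice were grown together with fibroblasts of the heart, taken from neonatal (NF) or adult (AF) animals. There were 2 bulk libraries of imCMs co-cultured with NFs (imCM-NF) and 2 of imCMs co-cultured with AFs (imCM-AF), and 2 single-cell libraries, 1 labelled cardiomyocytes and 1 labelled fibroblasts. Fibroblasts of both ages had been cultured for 3 passages before use per the study's methods, so they are cultured cells and not fresh ones. Those methods also plated fewer NFs than AFs per imCM, because NFs proliferate. The age of the fibroblasts and the number plated therefore cannot be told apart. The labels describe separation of cardiomyocytes by centrifugation, while the study's methods describe sorting of dye-labelled cells. Nothing in the labels says whether the 2 libraries of a group came from separate cultures, so p values measure only the spread between these libraries.

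Complex IV passes electrons from cytochrome c to oxygen and pumps protons across the inner mitochondrial membrane. Its catalytic core is encoded by mitochondrial DNA, and the nuclear subunits around it help assembly and tune activity. In rodent heart the muscle isoforms of subunits 6a, 7a and 8 become more abundant around and after birth, which makes the ratio within each pair a common readout of the cardiac isoform programme.

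On the GRCm38 assembly, the same as mm10, RefSeq places Cox6a2 at chr7:128205435-128206366, Cox7a1 at chr7:30184171-30186030 and Cox8b at chr7:140898942-140900446, so that all 3 heart isoforms lie on chromosome 7, far apart. The ubiquitous isoforms lie on 3 other chromosomes, Cox6a1 at chr5:115345652-115348958, Cox7a2 at chr9:79755241-79771422 and Cox8a at chr19:7215158-7217616. Cox7a1 is on the plus strand and the other 5 genes are on the minus strand. Cox6a2 overlaps Itgad, which is read from the opposite strand, and strand use in counting was not stated. The longest run of identical bases shared by the transcripts of a pair was 12 bp for Cox6a2 and Cox6a1, 12 bp for Cox7a1 and Cox7a2 and 11 bp for Cox8b and Cox8a. Cox6a1 had 1 annotated pseudogene with at least 90% identity over at least 100 bp, and the other 5 genes had 0.

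The 250 bases before the start used by the RefSeq promoter table are shown for 5 of the genes because their CpG content differed between the heart and the ubiquitous isoforms. They are RefSeq windows on GRCm38.p6, written 5′ to 3′ on the strand of the gene, and capitals mark CpG dinucleotides, a C followed by a G. For Cox7a2 that start lies inside the RefSeq gene span given above, so its window is not upstream of the whole gene, and the GENCODE models of Cox6a1, Cox7a1 and Cox7a2 reach into the last bases of their windows.
Cox7a1 (chr7:30183921-30184170, plus strand): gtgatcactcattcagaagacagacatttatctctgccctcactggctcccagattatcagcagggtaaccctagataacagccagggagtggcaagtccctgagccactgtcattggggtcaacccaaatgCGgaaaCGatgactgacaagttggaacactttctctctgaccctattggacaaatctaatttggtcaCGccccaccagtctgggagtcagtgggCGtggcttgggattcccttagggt
Cox8b (chr7:140900447-140900696, minus strand): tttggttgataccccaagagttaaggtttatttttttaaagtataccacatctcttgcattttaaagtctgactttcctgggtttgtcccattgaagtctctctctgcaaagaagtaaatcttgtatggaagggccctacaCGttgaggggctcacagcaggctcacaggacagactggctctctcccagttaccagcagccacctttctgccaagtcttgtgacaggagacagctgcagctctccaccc
Cox6a1 (chr5:115348959-115349208, minus strand): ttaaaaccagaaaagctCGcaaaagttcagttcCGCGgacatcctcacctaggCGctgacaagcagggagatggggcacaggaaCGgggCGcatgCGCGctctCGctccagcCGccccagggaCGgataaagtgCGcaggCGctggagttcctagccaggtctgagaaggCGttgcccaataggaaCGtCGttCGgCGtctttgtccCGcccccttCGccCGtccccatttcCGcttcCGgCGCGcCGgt
Cox7a2 (chr9:79759854-79760103, minus strand): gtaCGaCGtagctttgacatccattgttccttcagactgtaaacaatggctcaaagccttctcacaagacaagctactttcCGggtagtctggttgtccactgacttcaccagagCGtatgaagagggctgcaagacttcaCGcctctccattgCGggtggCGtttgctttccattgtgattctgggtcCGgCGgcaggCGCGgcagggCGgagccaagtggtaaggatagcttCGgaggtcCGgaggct
Cox8a (chr19:7217617-7217866, minus strand): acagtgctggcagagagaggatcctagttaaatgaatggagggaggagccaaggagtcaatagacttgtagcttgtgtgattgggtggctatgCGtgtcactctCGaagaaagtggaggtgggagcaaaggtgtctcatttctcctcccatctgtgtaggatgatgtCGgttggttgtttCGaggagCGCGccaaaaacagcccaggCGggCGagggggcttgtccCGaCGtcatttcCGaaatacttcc

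The 2 heart-isoform windows held 4 CpG dinucleotides (Cox7a1) and 1 (Cox8b), both below the median of 6 over all 32851 windows of this length. The 3 ubiquitous-isoform windows held 26 (Cox6a1), 14 (Cox7a2) and 11 (Cox8a), all above that median. Of all windows 37.8% held fewer than Cox7a1 and 7.87% fewer than Cox8b. For Cox6a1, Cox7a2 and Cox8a these shares were 90.4%, 70.6% and 64.4%. Windows were searched on both strands for the E-box CAGCTG, the TATA box TATAAA, the Sp1 motif GGGCGG, the estrogen-related receptor motif AAGGTCA, the CCAAT box and the MEF2 motif. CAGCTG was found in Cox8b only, 19 to 14 bases before the start, and 13.0% of all windows held it. GGGCGG was found in Cox6a1 (2 matches) and Cox7a2 (1 match), beside 32.7% of all windows, and CCAAT was found in Cox6a1, Cox7a1 (2 matches) and Cox8a, beside 33.8%. TATAAA (12.4% of all windows), AAGGTCA (4.08%) and the MEF2 motif (1.69%) had no match in the 5 windows. Overlaps between motifs did not occur among these matches, and a match is a description of letters only.

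The bulk libraries held between 9278909 and 12088577 counts. Over all genes the 2 libraries of a group differed beyond sampling noise (chi-square 7.11 for imCM-NF and 6.89 for imCM-AF, over its degrees of freedom), and each counted as 1 replicate. Markers of some other cell types moved with the groups. The summed level of 12 cardiomyocyte markers was 4.56% and 3.35% of counts in imCM-NF and 4.27% and 4.68% in imCM-AF, and that of 12 fibroblast markers 1.73% and 1.93% in imCM-NF and 1.19% and 0.946% in imCM-AF. Of the fibroblast markers 7 were called lower and 1 higher in imCM-AF, and of 10 endothelial markers 4 were called lower. Of 10 macrophage markers 2 were called lower, with log2 fold changes of both signs in the list. Of 6 smooth muscle markers 1 was called lower, and of 5 epicardial markers tested 1. Of all tested genes 4.99% were called lower and 6.15% higher. In bulk RNA, fewer cells of a type and less RNA per cell cannot be told apart.

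To learn which isoforms differed between imCM-AF and imCM-NF, each gene was read from an edgeR quasi-likelihood fit across all 14041 genes. A call needed a Benjamini-Hochberg adjusted p under 0.05 together with a log2 fold change beyond 0.58 in either direction. Of the 6 isoform genes 1 was called, Cox6a2, higher in imCM-AF, while 11.1% of all tested genes were called (6.15% higher and 4.99% lower). At an adjusted p under 0.05 alone Cox6a2 was again the 1 gene of the 6, beside 27.0% of all genes. Levels below are reads per kilobase of exon, scaled to depth (RPKM), so that genes of different length can be compared. Reads were counted on RefSeq genes while lengths are those of all GENCODE exons of a gene, so comparisons between genes are approximate.

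Cox6a2, the heart form of subunit 6a, stood at 425 and 357 RPKM in the imCM-NF libraries and at 589 and 579.8 RPKM in the imCM-AF libraries. The groups did not overlap, and both imCM-AF libraries lay close together. Its log2 fold change was 0.58 ± 0.11 (SE, n = 2 libraries per group, adjusted p = 0.00122 by edgeR's quasi-likelihood test), which only just passed the fold threshold. Without the second imCM-NF library the log2 fold change was 0.47 and the call was lost. Cox6a1, the form found in most tissues, stood at 659 and 566 RPKM in imCM-NF and at 532 and 531 RPKM in imCM-AF. Its groups did not overlap either, with imCM-AF the lower, but the log2 fold change of -0.21 ± 0.11 did not pass the test (adjusted p = 0.193, edgeR).

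Cox7a1, the heart form of subunit 7a, stood at 228 and 184 RPKM in imCM-NF and at 219 and 235 RPKM in imCM-AF, with overlapping groups (log2 fold change 0.14 ± 0.11, adjusted p = 0.339, edgeR). Cox7a2, its ubiquitous partner, stood at 365 and 307 RPKM in imCM-NF and at 289.8 and 284 RPKM in imCM-AF. These groups did not overlap, and the log2 fold change was -0.23 ± 0.11 (adjusted p = 0.139, edgeR).

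Cox8b, the heart form of subunit 8, stood at 298 and 239 RPKM in imCM-NF and at 261 and 246 RPKM in imCM-AF, and Cox8a, its ubiquitous partner, at 619 and 561 RPKM in imCM-NF and at 532 and 586 RPKM in imCM-AF. The groups overlapped for both genes, and both log2 fold changes were -0.08 ± 0.11 (adjusted p = 0.612 for Cox8b and 0.633 for Cox8a, edgeR). In all, 3 of the 6 genes had groups that did not overlap, beside 66.0% of all tested genes.

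**Figure D1:**
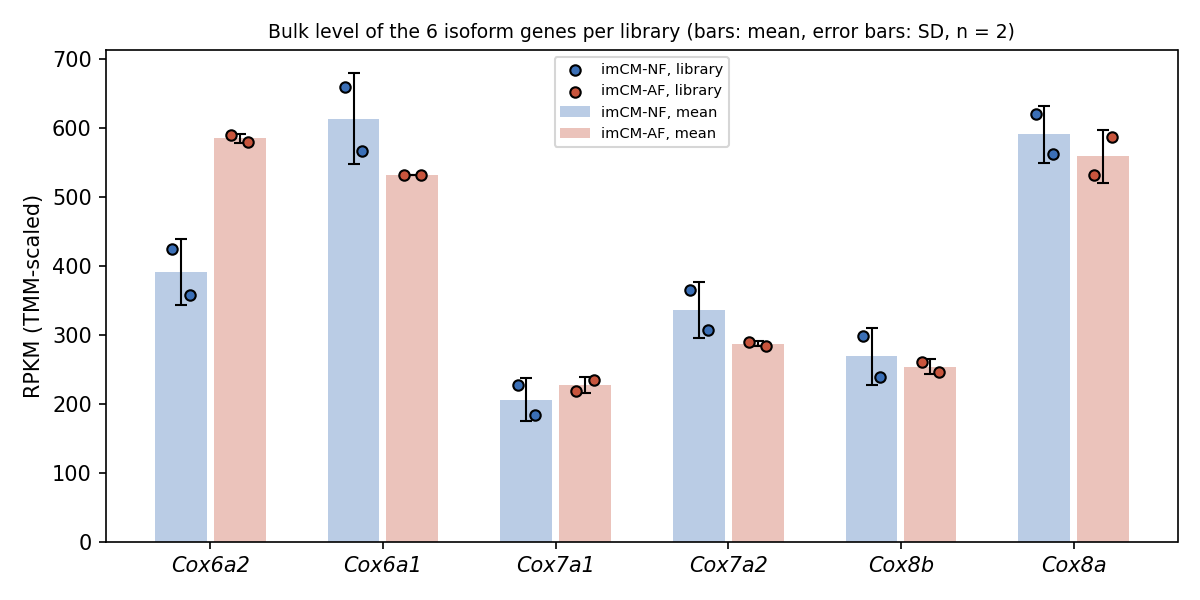
Bulk level of each isoform gene in RPKM (vertical axis) in the 4 libraries, with points for libraries, bars for the group mean and error bars for the SD (n = 2). Cox6a2 is the 1 gene that passed the test, at 425 and 357 RPKM in imCM-NF and 589 and 579.8 RPKM in imCM-AF.

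By mean RPKM over the 4 libraries the order was Cox8a (575), Cox6a1 (572), Cox6a2 (488), Cox7a2 (312), Cox8b (261) and Cox7a1 (216). The ranges over libraries of Cox8a (532 to 619), Cox6a1 (531 to 659) and Cox6a2 (357 to 589) overlapped, and the order of these 3 changed between libraries. Cox6a2 was above Cox7a2 (284 to 365), Cox7a2 above Cox8b (239 to 298) and Cox8b above Cox7a1 (184 to 235) in each of the 4 libraries, although the ranges of the first 2 of these comparisons overlapped across libraries.

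The ratio within a pair is taken inside a library and does not depend on how libraries are scaled. Per kilobase, Cox6a2 stood to Cox6a1 as 0.644 and 0.631 to 1 in imCM-NF and as 1.11 and 1.09 to 1 in imCM-AF. These use union exon lengths of 680 bp for Cox6a2 and 702 bp for Cox6a1. The Cox6a1 transcript searched for pseudogenes has 571 bp, so which isoform was the greater in imCM-AF depends on the length used. The share of Cox6a2 in the reads of its pair was 38.4% (exact 95% interval 37.3 to 39.6) and 37.9% (36.8 to 39.0) in imCM-NF and 51.8% (50.7 to 52.8) and 51.4% (50.4 to 52.4) in imCM-AF. The log2 ratio differed by 0.79 ± 0.018 (SE, n = 2 libraries per group), a 1.73-fold change, with a two-sided exact permutation p of 0.333, the smallest that 4 libraries allow. An SE over 2 libraries a group is imprecise, and this one can understate the uncertainty. Cox7a1 stood to Cox7a2 as 0.624 and 0.598 to 1 in imCM-NF and as 0.755 and 0.826 to 1 in imCM-AF. That pair moved the same way by less, 0.37 ± 0.072 on the log2 scale or 1.29-fold (n = 2 per group, exact permutation p = 0.333), and its groups did not overlap. Cox8b stood to Cox8a as 0.481 and 0.426 to 1 in imCM-NF and as 0.491 and 0.419 to 1 in imCM-AF, with overlapping groups and a log2 difference of 0.0035 ± 0.14 (n = 2 per group, exact permutation p = 1). Intervals of shares cover counting error only.

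The summed level of a pair is given in CPM, counts scaled to a common depth. Together Cox6a2 and Cox6a1 stood at 752 and 641 CPM in the imCM-NF libraries against 774 and 767 CPM in the imCM-AF libraries, without overlap. The pair of Cox7a1 and Cox7a2 stood at 466 and 388 CPM against 391 and 394 CPM, and that of Cox8b and Cox8a at 491 and 434 CPM against 423 and 451 CPM, both with overlap. Set against cardiomyocyte content, Cox6a2 gave 6.33 and 7.26 CPM per 1000 CPM of the 12 cardiomyocyte markers in imCM-NF and 9.37 and 8.43 in imCM-AF, again without overlap. On that scale Cox7a1 gave 2.67 and 2.94 in imCM-NF and 2.74 and 2.69 in imCM-AF, with overlap. Cox8b gave 2.35 and 2.57 in imCM-NF and 2.20 and 1.89 in imCM-AF, with imCM-AF the lower. All 3 ubiquitous isoforms, which fibroblasts also express, were lower on it in both imCM-AF libraries. Cox6a1, for example, stood at 10.2 and 11.9 in imCM-NF and at 8.73 and 7.97 in imCM-AF. No share over all genes was taken on this scale, so its separations have no background. The marker sum was lowest in the second imCM-NF library (3.35% of counts), which raises the value of every gene there. Cox8a overlapped between the groups before this scaling. The fibroblast markers above were lower in the imCM-AF libraries, and their part in the ratios was not tested.

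Among all 14041 tested genes, 7035 had a positive log2 fold change, 6.15% were called higher and 4.99% lower in imCM-AF. Of 12 other nuclear subunits 11 were tested, 3 with a positive and 8 with a negative log2 fold change. Their median was -0.15, beside a median of 0.0011 over all genes. The 2 called were both lower in imCM-AF and both alternative isoforms at low level, Cox4i2, a subunit 4 isoform known from lung and smooth muscle, at 20.3 and 18.6 CPM with NFs and 13.2 and 10.7 CPM with AFs, and Cox6b2, a testis isoform, at 2.23 and 2.48 CPM with NFs and 1.37 and 0.924 CPM with AFs. At the other end Cox5a, a core-binding subunit, had a log2 fold change of 0.31 ± 0.11 (adjusted p = 0.0486, edgeR), short of the fold threshold. Of 26 assembly and copper-delivery factors 1 was called, Cox18, a membrane insertase, with a log2 fold change of 0.59 ± 0.13 (adjusted p = 0.00293, edgeR), and the list median was 0.07. Of 11 regulators of mitochondrial and muscle genes 10 had a positive log2 fold change, with a median of 0.31, and 3 were called higher in imCM-AF. These were Ppargc1a (0.87 ± 0.12, adjusted p = 8.56e-05), Ppargc1b (0.92 ± 0.14, adjusted p = 0.000191), both coactivators of mitochondrial biogenesis, and the nuclear receptor Esrrg (0.78 ± 0.18, adjusted p = 0.00356), all by edgeR's quasi-likelihood test. Ppargc1a stood at 36.0 and 27.3 CPM with NFs and at 52.8 and 62.2 CPM with AFs.

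Other pairs of a muscle and a widespread isoform were read in the same way. The log2 ratio was higher in imCM-AF by 0.36 ± 0.071 for Cpt1b over Cpt1a, the mitochondrial fatty acid importers, by 0.41 ± 0.20 for Pgam2 over Pgam1, glycolytic mutases, and by 0.07 ± 0.046 for Slc25a4 over Slc25a5, the ADP/ATP carriers (n = 2 per group). These 3 did not overlap between groups (exact permutation p = 0.333 each), while Eno3 over Eno1, the enolases (0.19 ± 0.23), and Ckmt2 over Ckmt1, the mitochondrial creatine kinases (0.55 ± 0.98), did. Cox4i2 over Cox4i1, another isoform pair of complex IV, was lower in imCM-AF by a log2 difference of -0.57 ± 0.13. Its groups did not overlap either (exact permutation p = 0.333). With an SE of 0.98 the value for Ckmt2 over Ckmt1 cannot be ranked against the 0.79 of Cox6a2 over Cox6a1, which was above the other 5. Over the 9 ratios the Benjamini-Hochberg adjusted exact permutation p was 0.5 at the lowest.

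The single-cell libraries were read to see where each isoform was found. Each well of a chip was meant to hold 1 cell, and transcripts were counted by unique molecular identifiers (UMIs). Each library was 1 chip, so no comparison of wells has replicate libraries and none was tested. The wells carry the authors' names, 16 in all, and the labels do not define them. The cardiomyocyte library has wells named NCM0, NFNCM and AFNCM, and the fibroblast library wells named NF0, NF, AF0 and AF, each with a number. Of 2462 wells that were not controls 2247 were kept, 1296 in the cardiomyocyte library with a median of 18237.5 UMIs and 951 in the fibroblast library with a median of 27809 UMIs. The chips shared 269 barcodes. Markers matched the labels of the libraries. Cardiomyocyte markers gave a median of 5.22%, 5.59% and 3.59% of UMIs in wells named NCM0, NFNCM and AFNCM, and between 0.00719% and 0.178% in the 4 kinds of fibroblast wells.

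The heart isoforms were concentrated in the cardiomyocyte library. Over all kept wells the heart isoform of each pair gave 50.8% to 63.6% (Cox6a2), 50.5% to 56.8% (Cox7a1) and 66.7% to 77.0% (Cox8b) of pair UMIs over the 8 names of the cardiomyocyte library. Over the 8 names of the fibroblast library the shares were 0.224% to 22.0%, 0.391% to 32.6% and 0.399% to 32.9%. No name of one library came within the range of the other for any pair. The wells named AF0_2 and AF2 were at the bottom for all 3 pairs. In the 98 wells named AF0_2, Cox6a2 was at 6 UMIs, Cox7a1 at 41 and Cox8b at 11, beside 2677 UMIs of Cox6a1, 2175 of Cox7a2 and 2746 of Cox8a.

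**Figure D2:**
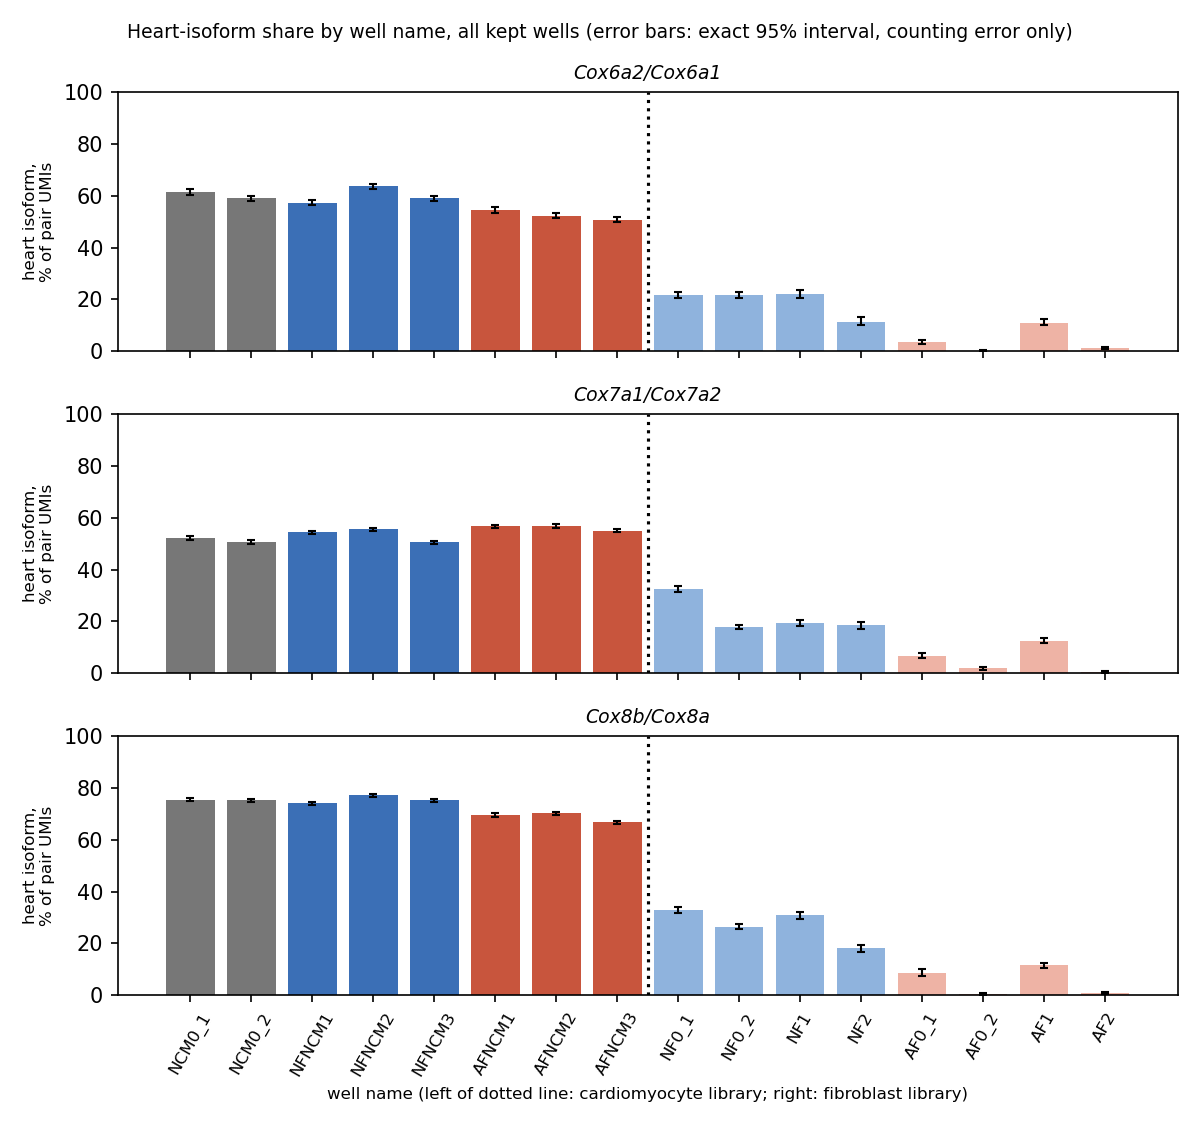
Share of the heart isoform in the UMIs of each pair (vertical axis, %) for each of the 16 well names, all kept wells, with exact 95% intervals that cover counting error only. The 8 names of the cardiomyocyte library lie at 50.5% or more and the 8 names of the fibroblast library at 32.9% or less.

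The heart-isoform UMIs of the fibroblast library came from few wells. The 46 of 951 wells in which cardiomyocyte markers made up at least 1% of UMIs (4.84% of wells) held 87.3% of its Cox6a2 UMIs, 93.0% of its Cox7a1 UMIs and 92.1% of its Cox8b UMIs, but 44.9% of its UMIs of Tnnt2, the cardiac troponin T gene. No Cox6a2 UMI was found in 85.7% of wells, no Cox7a1 UMI in 84.1% and no Cox8b UMI in 83.1%. Over the whole fibroblast library the heart shares were 13.8%, 17.2% and 20.7% for Cox6a2, Cox7a1 and Cox8b, and without the 231 wells whose barcode was also used on the other chip 13.9%, 17.6% and 20.7%.

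With wells of both libraries ordered by cardiomyocyte-marker content, the heart share of every pair was low in the lowest class and higher in each class up to 4%. In the 1048 wells with under 0.5% of UMIs from the 12 markers it was 3.73% for Cox6a2, 4.16% for Cox7a1 and 5.01% for Cox8b. In the 135 wells between 2% and 3% it was 49.3%, 50.1% and 64.5%, and in the 367 wells between 6% and 8% it was 62.4%, 57.6% and 78.3%. The level of the ubiquitous partners was not flat over the same range. Cox6a1 went from 535 CPM (UMIs of the gene scaled to CPM) in the lowest class to 1397 between 6% and 8%, Cox7a2 from 745 to 3569.9, and Cox8a from 696 to 1476. All 6 genes were thus higher in wells rich in cardiomyocyte markers, the heart isoforms by far more, Cox8b for example from 36.7 to 5312 CPM. Median depth differed between these classes (27769.5 UMIs in the lowest, 9419 between 2% and 3% and 24019 between 6% and 8%), and its part was not tested.

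**Figure D3:**
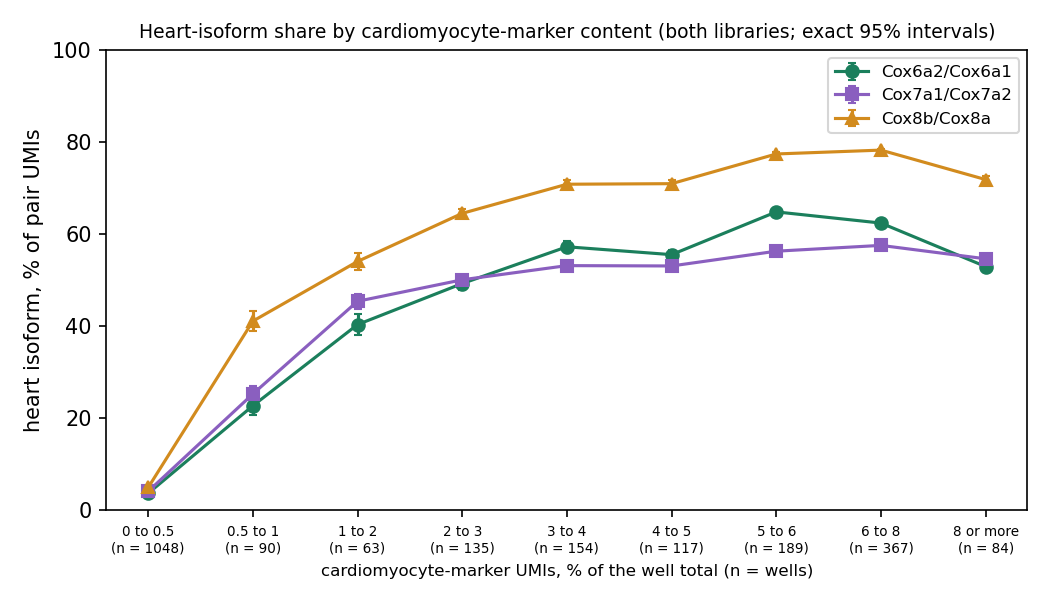
Share of the heart isoform in pair UMIs (vertical axis, %) in wells grouped by the share of UMIs from 12 cardiomyocyte markers (horizontal axis), both libraries together, with exact 95% intervals for counting error. The share goes from 3.73%, 4.16% and 5.01% in the lowest class to 62.4%, 57.6% and 78.3% between 6% and 8%, and it is lower again in the 84 wells at 8% or more.

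Low-marker wells differed between the libraries. To compare detection at 1 depth, wells with under 0.5% marker UMIs were thinned to 5000 UMIs and shallower wells left out. In fibroblast-library wells a Cox6a2 UMI was then seen in 2.00% to 4.31% of wells over the names NF0, NF, AF0 and AF, a Cox7a1 UMI in 1.79% to 5.49% and a Cox8b UMI in 1.19% to 6.67%. Before thinning these shares were 4.76% to 14.1%, 10% to 17.6% and 7.74% to 17.3%. In cardiomyocyte-library wells under the same limit the thinned shares were higher. Cox6a2 was seen in 18.2% of 66 wells named NFNCM and 23.2% of 82 named AFNCM. Cox7a1 was seen in 33.3% and 47.6%, and Cox8b in 47.0% and 41.5%. The limit did not make marker content equal. A Tnnt2 UMI was seen after thinning in 98.5% (NFNCM) and 93.9% (AFNCM) of these wells. In the fibroblast library it was seen in 91.4% (NF0), 79% (NF), 29.8% (AF0) and 19.1% (AF). Median depth before thinning was 34212 and 28268 UMIs in these cardiomyocyte-library wells and 22215.5 to 38942.5 in the fibroblast-library wells. The part of free RNA in these shares was not tested. The ubiquitous isoforms were seen in 74.4% to 90.6% of the fibroblast-library wells after thinning. Negative control wells, 5 on each chip, held 6 heart-isoform UMIs among 1465 UMIs on the cardiomyocyte chip and 0 among 3587 on the fibroblast chip.

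To set the isoforms side by side in cells of like kind, wells were taken in which at least 5% of UMIs came from the 12 cardiomyocyte markers. This is a range and not a cell type, and many wells lie near it, 105 of 523 wells named NFNCM and 80 of 515 named AFNCM having between 4% and 6%. It held 144 wells named NCM0, 294 named NFNCM and 189 named AFNCM, that is 55.8%, 56.2% and 36.7% of kept wells. The median well of each had 6.07%, 6.67% and 6.81% cardiomyocyte-marker UMIs, at most 0.0528% fibroblast-marker UMIs and 0 endothelial, macrophage or epicardial marker UMIs. Median depth was 17131, 22092.5 and 29990 UMIs.

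In these wells all 6 isoforms had a lower mean level under the names AFNCM than under NFNCM. Levels here are CPM of UMIs. For 4 of the 6 every AFNCM name was below every NFNCM name. Of 3479 genes that reached 50 CPM under at least 1 name, 23.9% separated the names in this way, 9.54% lower and 14.4% higher under AFNCM. Cox6a2 gave 2675, 2693 and 2355 CPM under the 3 NFNCM names and 2021, 1713 and 1549.8 under the 3 AFNCM names. Cox8b gave 5876, 6087 and 5578 under NFNCM and 4077, 4313 and 3495 under AFNCM. Cox7a2 gave 4086, 3784 and 3926 under NFNCM and 3097, 2935 and 2789 under AFNCM, and Cox8a 1518, 1552 and 1584 under NFNCM and 1289.6, 1279 and 1282 under AFNCM. The names separated cleanly for these 4 genes.

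Cox7a1 was the gene that differed least, at 5459, 5105 and 4519 CPM under NFNCM and 4829, 4841 and 3910.0 under AFNCM, with overlapping names. Cox6a1 overlapped as well, at 1581, 1353 and 1492 under NFNCM and 1362, 1200.3 and 1214 under AFNCM. On the log2 scale the difference of the name means, AFNCM minus NFNCM, was -0.55 for Cox6a2, -0.56 for Cox8b, -0.42 for Cox7a2, -0.27 for Cox8a, -0.23 for Cox6a1 and -0.15 for Cox7a1, beside a median of 0.06 over the 3479 genes.

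**Figure D4:**
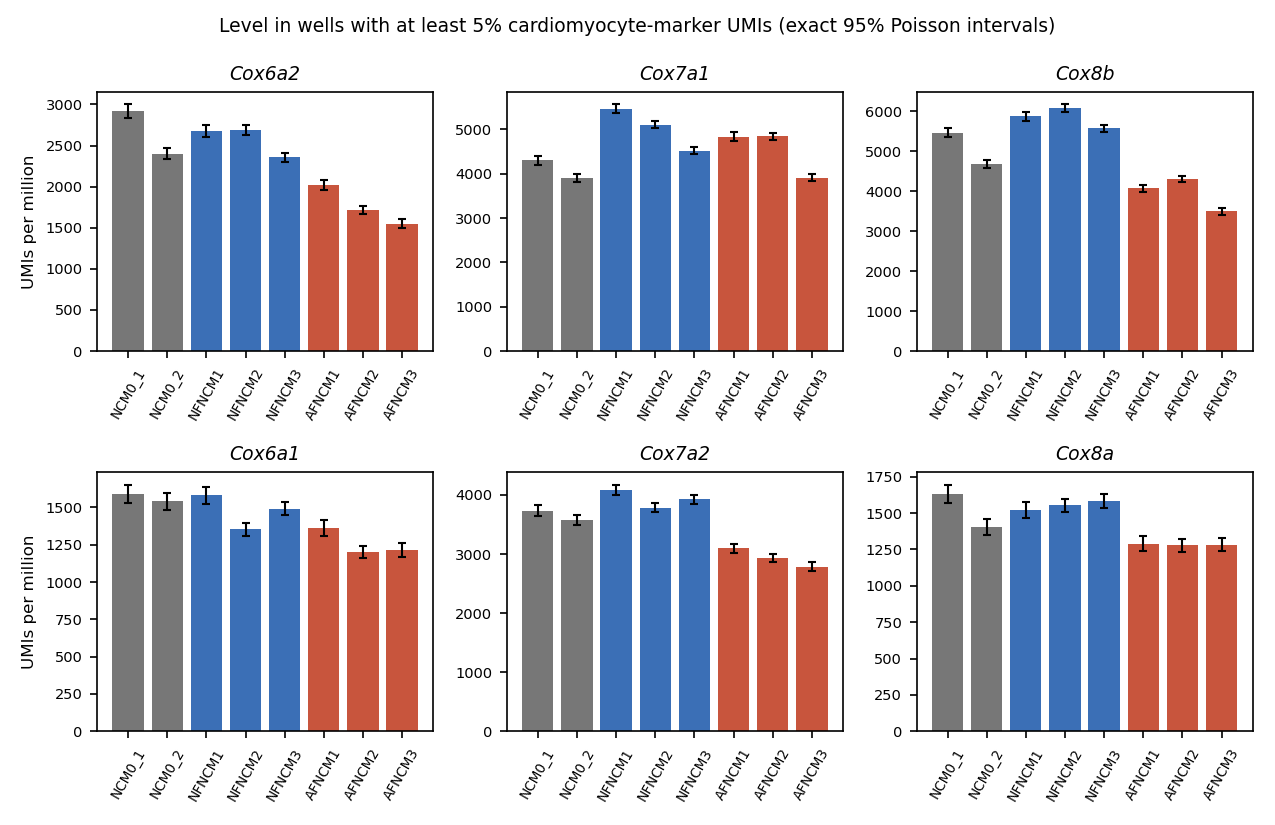
Level of each isoform gene (vertical axis, CPM) in wells with at least 5% cardiomyocyte-marker UMIs, by well name, with exact 95% Poisson intervals for counting error. Grey bars are NCM0, blue bars NFNCM and red bars AFNCM, and the red bars of Cox6a2, Cox8b, Cox7a2 and Cox8a all lie below the blue ones.

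The heart shares therefore moved in different directions by pair. Cox6a2 made up 62.9%, 66.6% and 61.2% of its pair under the NFNCM names and 59.7%, 58.8% and 56.1% under the AFNCM names. Cox8b made up 79.5%, 79.7% and 77.9% under NFNCM and 76.0%, 77.1% and 73.2% under AFNCM. Cox7a1 went the other way, with 57.2%, 57.4% and 53.5% under NFNCM and 60.9%, 62.3% and 58.4% under AFNCM. None of the 3 pairs overlapped between the names. There is no background share for such ratios, since of the other isoform pairs read in bulk only Slc25a4 and Slc25a5 had enough UMIs of both partners, and that pair overlapped, Slc25a4 making up 81.7%, 82.5% and 78.7% under NFNCM and 80.1%, 78.2% and 80.0% under AFNCM. On summed UMIs the log2 ratio differed, AFNCM minus NFNCM, by -0.33 (95% counting interval -0.38 to -0.28) for Cox6a2 over Cox6a1, by 0.28 (0.24 to 0.31) for Cox7a1 over Cox7a2 and by -0.28 (-0.33 to -0.24) for Cox8b over Cox8a. Without wells whose barcode was on both chips these were -0.29, 0.31 and -0.21.

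Beside the bulk libraries, Cox7a1 over Cox7a2 had the same sign in both assays, 0.37 in bulk and 0.28 in single wells, and Cox6a2 over Cox6a1 had opposite signs, 0.79 in bulk and -0.33 in single wells. The assays also differed in level. Bulk libraries had 3.35% to 4.68% of counts from the cardiomyocyte markers, and the share of Cox8b in its pair was 19.6% to 22.2% of bulk reads, or a ratio to Cox8a of 0.419 to 0.491 per kilobase. Single wells between 3% and 5% markers, of both libraries, had a Cox8b share of 70.9% to 71.0% of UMIs. Some subunits were nearly unseen by UMIs and abundant in bulk, Cox5a with 14.1 CPM under NFNCM and 386 to 405 CPM in imCM-NF, so a ratio between genes is not comparable across the assays and only its change within 1 assay was used.

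**Figure D5:**
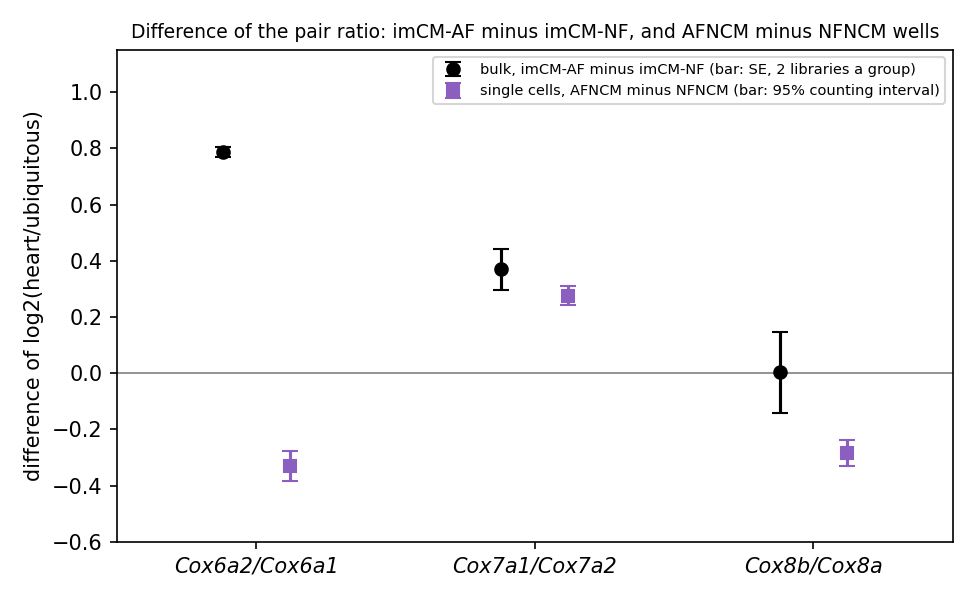
Difference of the log2 ratio of heart to ubiquitous isoform (vertical axis) for each pair, in bulk (imCM-AF minus imCM-NF, circles, bars SE over 2 libraries a group) and in single wells with at least 5% cardiomyocyte-marker UMIs (AFNCM minus NFNCM, squares, bars 95% counting interval). The pair Cox6a2/Cox6a1 is at 0.79 in bulk and -0.33 in single wells, and Cox7a1/Cox7a2 is above 0 in both.

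With the numbered names of NFNCM pooled, and likewise those of AFNCM, single wells varied far more than the names did. The spread within a single name was not computed. Among wells at or above 5% markers with at least 10 UMIs of the pair, the quartiles of the Cox6a2 share were 46.7% and 74.2% under NFNCM (median 63.2%, 261 wells) and 41.6% and 70.3% under AFNCM (median 57.7%, 164 wells). For Cox7a1 they were 44.6% and 62.8% under NFNCM (median 53.6%, 277 wells) and 48.1% and 67.7% under AFNCM (median 59.7%, 182 wells). Cox8b was the most uniform, with quartiles of 70.3% and 85.7% under NFNCM (median 80.2%, 274 wells) and 63.5% and 82.7% under AFNCM (median 75.2%, 176 wells), and it was the greater of its pair in 96.4% and 92.6% of those wells. Wells with no heart isoform at all were rare, 1 for Cox6a2 under NFNCM and 0 for the other pairs and names of NFNCM and AFNCM. Median pair UMIs per well were between 70.5 and 195, so counting error is part of this spread.

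Wells named NCM0 overlapped with those named NFNCM for Cox6a2, at 2916 and 2400.2 CPM. Cox7a1 was lower under both NCM0 names (4298 and 3893 CPM) than under any NFNCM name, and so were Cox8b (5468 and 4693 CPM) and Cox7a2 (3730.2 and 3572 CPM). Of 3466 genes 29.7% separated NFNCM from NCM0, 11.9% higher and 17.9% lower under NFNCM. Against NCM0 the AFNCM names were lower for 5 of the 6 genes, while Cox7a1 overlapped. Of 3673 genes 30.2% separated AFNCM from NCM0, 14.8% higher and 15.4% lower under AFNCM. Cox7a1 made up 53.5% and 52.2% of its pair under NCM0, below every AFNCM name and overlapping with the lowest NFNCM name.

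Of 12 other nuclear subunits of complex IV 8 reached 50 CPM in these wells under at least 1 name. All 8 had a lower mean under AFNCM. Every AFNCM name was below every NFNCM name for 6 of them, beside 9.54% of 3479 genes (14.4% were higher). The median log2 difference of the 8 was -0.28, beside 0.06 over the 3479 genes. At the extremes, Ndufa4, the subunit once assigned to complex I, had a mean of 3132 CPM under NFNCM and 2306 CPM under AFNCM, and Cox7a2l, a supercomplex factor, 447 and 410.3 CPM. Of the mitochondrially encoded subunits mt-Co1 took 0.418% of all UMIs under both NFNCM and AFNCM, while mt-Co2 and mt-Co3 were at 41 UMIs or fewer under each. Of 26 assembly factors 14 reached 50 CPM and 1, the copper chaperone Cox19, was lower under every AFNCM name. Of 11 regulators 4 reached it, among them Mef2a, lower under every AFNCM name, and Mef2c, higher under every one. Ppargc1a and Ppargc1b, both called higher in bulk, reached it too, with overlapping names. Ppargc1a had a mean of 48.5 CPM under NFNCM and 50.3 CPM under AFNCM, and Ppargc1b 41.1 and 38.9 CPM. Esrrg, also called higher in bulk, did not reach it, at 10.8 and 5.56 CPM.

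The genes other than these 6 whose level followed the heart isoforms most closely over the 16 well names were, for Cox6a2, Tnni3 (Pearson's r = 0.995), Myl3 (0.991), Fabp3 (0.991), Mb (0.99) and Pgam2 (0.988). For Cox7a1 they were Fxyd1 (0.994), Tnnc1 (0.993), Myl3 (0.993), Tnni3 (0.992) and Nebl (0.99), and for Cox8b Tnni3 (0.995), Myl3 (0.994), Mb (0.994), Myl2 (0.99) and Myh6 (0.988). Tnni3, Tnnc1, Myl2, Myl3 and Myh6 encode parts of the sarcomere, Mb is myoglobin, Fabp3 a fatty acid binding protein and Pgam2 a glycolytic enzyme. The measure is log2 of CPM plus 1 over 5412 genes. The heart isoforms correlated with each other at 0.98 to 0.993 and with the ubiquitous ones at 0.837 to 0.956. The 16 names share 2 chips and are not independent. They span the cardiomyocyte and the fibroblast library, so the contrast between the libraries is part of every r. No r within 1 library is given here.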

How the data were processed

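RNA of co-cultured imCMs was sequenced in 4 bulk libraries, and 2 nanowell (ICELL8) chips gave single-cell libraries of the cardiomyocyte and fibroblast fractions. The bulk values are raw counts per gene deposited by the authors, who per the study's methods aligned reads to mm10 with subread, kept uniquely placed reads and counted them with featureCounts on RefSeq genes. The single-cell values are UMI counts per gene and well deposited by the authors. The submitters' processing notes name Subread 1.4.6-p1, featureCounts and STAR 2.5.2b. Of 27179 bulk identifiers 1904, with 3.52% of counts, had no symbol.

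Genes with CPM over 1 in at least 2 bulk libraries were tested by edgeR 4.0.16 (R 4.3.3, TMM, quasi-likelihood, Benjamini-Hochberg over 14041 genes), with DESeq2 1.42.0 and limma 3.58.1 as alternatives. SE is the log2 fold change over the root of F. RPKM used the union exon length of GENCODE. Tested on simulated data for this comparison, the fit recovered 189 of 200 genes changed by 1.5 on the log2 scale, with 3 false calls among 14041 genes. That change is larger than the difference of any of the 6 isoforms, and recovery at their sizes was not tested. Pair ratios were compared by an exact permutation test over the 4 libraries. Wells entered with 500 genes or more, UMIs no more than 2 SD from the average well, and an aligned share of screened read pairs above 50%, mitochondrial genes left out of totals. The study describes picking wells by imaging to leave out multiplets, and sorting of cells with a single dye. No doublet caller was run here. Spike-in columns (85 and 79) were not used. Shares have exact Clopper-Pearson and levels exact Poisson 95% intervals, which cover counting error only (Python 3.11.15, scipy 1.17.1). The genes named are the 6 isoforms and, of the fixed lists, members that were called or at an extreme. The isoforms and lists were chosen with earlier results of these data known. Protein sequences and the promoter of Cox6a2 were not used here.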

Additional observations from a re-analysis of the deposited data

Results flagged for a closer look

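The ratio of Cox6a2 to Cox6a1 moved in opposite directions in the 2 assays. In bulk both imCM-AF libraries lay above both imCM-NF libraries, with a log2 difference of 0.79, while in single wells with at least 5% cardiomyocyte-marker UMIs every AFNCM name lay below every NFNCM name, with a log2 difference of -0.33. The difference between the assays was not tested, since each single-cell library was 1 chip.

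Negative control wells, which no comparison uses, held UMIs of the 6 isoforms above the 3 counts that a count of 0 allows. There were 10 such UMIs among 1465 on the cardiomyocyte chip and 10 among 3587 on the fibroblast chip.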

How the results depend on the processing

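Of the bulk results, the differences for Cox6a1, Cox7a1 and Cox7a2 kept their sign and stayed outside the call under all 9 alternatives, but their size did not hold. With 1 library left out they ran from -0.30 to -0.094, from 0.0027 to 0.30 and from -0.34 to -0.10. The adjusted p alone was under 0.05 for Cox7a1 without the first imCM-NF library (0.0477, edgeR) and for Cox7a2 without the second (0.0454, edgeR). The call of Cox6a2 was lost, on its fold alone, with no expression filter (log2 fold change 0.57) and over libraries left out in turn its value ran from 0.47 to 0.71. Leaving out libraries gave -0.23 to 0.082 for Cox8b and -0.14 to 0.0033 for Cox8a, which changed sign without the first imCM-NF library (0.082) and without the first imCM-AF library (0.0033), and -0.11 to 0.12 for the Cox8b/Cox8a log2 ratio, which was -0.085 without the second imCM-NF library and -0.11 without the first imCM-AF library. The Cox6a2/Cox6a1 ratio stayed between 0.77 and 0.80 and the Cox7a1/Cox7a2 ratio between 0.30 and 0.44. The number of called genes was 1564, 879 to 1929 with 1 library left out (879 without the second imCM-NF library, 988 without the second imCM-AF library), and 3789 at adjusted p alone. Same-numbered libraries did not deviate together over all genes (correlation -0.13), but 2 libraries a group cannot show whether the replicate number marks a pairing. Blocking by that number gave an SE of the log2 ratio of 0.026 for Cox8b/Cox8a, 0.0044 for Cox6a2/Cox6a1 and 0.096 for Cox7a1/Cox7a2. Without the block these SEs were 0.14, 0.018 and 0.072, and all of them rest on 2 libraries a group and are imprecise. With that number as a block 1430 genes were called and with crossed numbers, an alternative chosen after seeing the data, 1668. The block changed no call among the 6 isoforms.

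In single wells the sign of each pair's difference held under every alternative, and its size did not. Cox6a2/Cox6a1 was -0.55 with the gene-number filter alone, -0.44 with a marker limit of 2%, -0.76 with 10% and -0.49 with wells thinned to 5000 UMIs. Cox8b/Cox8a was -0.39, -0.43, -0.076 and -0.42 under the same 4, and Cox7a1/Cox7a2 was 0.21 with a limit of 2%. The limit of 10% leaves 7 wells named AFNCM and 8 named NFNCM, so it says little. Leaving out wells with a barcode of both chips, also chosen after seeing the data, gave 0.31 for Cox7a1/Cox7a2 and -0.21 for Cox8b/Cox8a. The cause of these moves was not tested. Thinning left out 43 wells named NFNCM and 22 named AFNCM. With 2 bulk libraries a group the exact permutation test of a pair ratio cannot go below 0.333, and with 1 chip a fraction the single-cell ratios have no test.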

Other observations

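The balance of the isoforms also differed with the light chain a well expressed, a division chosen after the values were seen. Among the wells with at least 5% cardiomyocyte-marker UMIs in the cardiomyocyte library, 40 had more UMIs of Myl7, the atrial myosin light chain, than of Myl2, the ventricular one, and 587 did not. The Cox8b share of its pair was 68.1% (exact 95% interval 66.8 to 69.3) in the former and 78.0% (77.8 to 78.2) in the latter, and it was the lower under each of NCM0 (71.1% in 7 wells against 77.2%), NFNCM (65.8% in 17 wells against 79.5%) and AFNCM (69.0% in 16 wells against 76.1%). The Cox7a1 share was 53.1% against 57.3%, and it was the lower under NFNCM and AFNCM but not under NCM0 (58.2% against 52.6%). The Cox6a2 share was 61.3% against 61.8%, without a common direction over the names. The level of Cox8b was 2578 against 5189 CPM. These wells come from 1 chip, and the intervals cover counting error only.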
